A study of Mus musculus with 12 samples.

Results

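MicroRNA-126a is made from 1 hairpin whose 2 arms are both kept as mature microRNAs, mmu-miR-126a-3p and mmu-miR-126a-5p (miR-126a-3p and miR-126a-5p below), and these 2 assays were followed here among the 504 microRNA assays measured in mouse fat. They were taken by name, and the pair was chosen by its measured levels: the arms differed in opposite directions between mice exposed to a high-fat diet in utero and control mice. Every value of that contrast below is therefore a description without a test. Epididymal fat, a visceral depot, of male C57BL/6J wild-type mice was profiled by quantitative RT-PCR in 4 groups. The UT group met the high-fat diet (45% of energy from fat) in utero through the dam, and the UL group from mating to weaning. The WL group met it from mating until termination, and the CD group received the matching control diet (10% of energy from fat). Mice of all 4 groups were terminated at 23 weeks. Parents of every group ate a breeding diet before mating, and each group was measured as 3 pools made from 12 mice, so a pool averages several animals; which litters it drew on was not stated in the labels.

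MiR-126 is the best known microRNA of endothelial cells, the lining of blood vessels. Its hairpin sits in an intron of Egfl7, which encodes a protein secreted by endothelium, and the 3p arm sustains the response to vascular endothelial growth factor by repressing Spred1 and Pik3r2, brakes on that pathway. The 5p arm is also active in mouse endothelium, where it represses Dlk1, an inhibitor of endothelial proliferation that is at the same time an inhibitor of fat cell formation. Fat is densely vascularised, and platelets and blood progenitors carry miR-126 too.

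The hairpin lies at chr2:26591357-26591429 on the plus strand of GRCm38.p6, inside Egfl7 (chr2:26581083-26592682), 10274 bases after the start of that gene and 1253 before its end. It is shown with the 3p arm in capitals (bases 46 to 67 of 73), because the arm gap described below sets this side of the stem against the opposite side, and the 3p arm is shown again with its seed, bases 2 to 8, in capitals. No mature entry for the 5p arm was matched in the RefSeq table, from which all sequences here were taken.
pre-miR-126a: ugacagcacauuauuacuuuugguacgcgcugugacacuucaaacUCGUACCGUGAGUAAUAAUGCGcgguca
miR-126a-3p: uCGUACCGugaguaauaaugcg
A further microRNA gene, Mir126b, lies on the opposite strand of the same stretch. Its 5p product, which shares 19 genomic positions with miR-126a-3p in antisense, is given because it shows how closely the transcripts of this locus mirror each other; miR-126b had no assay in the table.
miR-126b-5p: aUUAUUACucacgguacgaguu
Among the 392 assays with a RefSeq mature sequence, 0 others carried the seed of miR-126a-3p; the remaining assays, with no matched sequence, were not searched.

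Values were threshold cycles (Ct), in which an earlier cycle stands for more template. Both arms came early and were measured in all 12 pools. Over these pools miR-126a-3p had a mean Ct of 17.39 and miR-126a-5p of 17.90. The relative level used below is the mean Ct of the pool's microRNAs minus the Ct of the assay, in cycles on the log2 scale. On that scale miR-126a-3p averaged 7.47 and stood at place 10 of 504, after let-7a-5p (7.64) and before let-7e-5p (7.21). MiR-126a-5p averaged 6.97 and stood at place 16, after miR-23a-3p (7.06) and before miR-669c-5p (6.94). These neighbours lie closer than the spread between pools, and assays can differ in efficiency, so the places order Ct and not amounts. Of 95 hairpins with both arms assayed, miR-126a was the only one whose later arm had a mean Ct as early as 17.90. Its absolute mean gap between arms, 0.50 cycles, compared with a median of 3.35 over the 95 hairpins, with 5 hairpins closer. That mean is taken over gaps of both signs, from -1.79 to 1.70 cycles, which partly cancel. Group means were -1.03 in UT and 1.52 in CD, so 0.50 understates the gap within single groups.

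Per pool, the number of assays with a value ranged from 492 to 506 and the median Ct from 24.62 to 25.29. The spread of a pool around its group mean was widest in WL 3 (SD 0.97 cycles over 466 microRNAs) and UT 2 (0.85) and narrowest in UL 3 (0.39). Markers of other cell types were read as the average level of each list per pool. Measured here means that an assay was matched by name, so an entry assayed under another name would be missed. The 5 of 5 leukocyte microRNAs measured averaged 0.65 to 1.31 in UT, 1.25 to 1.85 in UL, 1.53 to 2.36 in WL and 1.55 to 1.96 in CD. The 4 of 5 stromal and smooth muscle microRNAs measured averaged 4.09 to 4.43 in UT, 4.71 to 4.86 in UL, 4.34 to 4.68 in WL and 4.81 to 5.19 in CD. In both lists the UT pools lay below all CD pools. Of the leukocyte list, miR-155-5p averaged -0.69 in UT and -0.75 in CD, while the other members of both lists were lower in UT. Among single microRNAs complete in both groups, 14% of 480 did not overlap between UT and CD, in one direction or the other. No such share was computed for averages of lists, so that share is not a like baseline for them. Epithelial microRNAs, 5 of 5 measured, had pool averages of 0.16 to 2.74 in UT, 2.61 to 3.90 in UL, 2.29 to 4.93 in WL and 1.81 to 4.58 in CD. Their group means were 1.03 in UT, 3.46 in UL, 3.87 in WL and 3.54 in CD. This was the largest shift of these lists between UT and CD, and all 5 were lower on average in UT, although the pools overlapped. MiR-451a of red cells, the only 1 measured of 3 erythroid and platelet entries, had 5.06 to 5.98 in UT, 5.63 to 6.22 in UL, 4.66 to 5.87 in WL and 4.90 to 6.47 in CD. The skeletal muscle list (3 of 4 measured) lay at -2.74 to -0.70 in every pool. Of the 4 microRNAs listed as enriched in adipocytes, the 2 with a matching assay, miR-103-3p and miR-107-3p, averaged 0.91 to 1.49 in UT, 1.96 to 2.44 in UL, 0.88 to 2.24 in WL and 1.29 to 1.91 in CD. The part of these lists in the values of miR-126a was not tested. For the level of either arm taken alone, fewer endothelial cells and less of the microRNA per cell cannot be told apart in bulk fat.

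Some pools stood apart in other assays, 4 in all, and these come before the comparison of the arms. In UT 1, UT 2, UT 3 and WL 3, miR-676-3p had relative levels of 1.04 to 1.70 and miR-676-5p of -2.44 to -1.28, while in the other 8 pools miR-676-3p lay at -3.57 to -1.89 and miR-676-5p at 1.18 to 1.77. The arms of this hairpin thus traded levels in these 4 pools. The unrelated assays miR-592-3p and miR-758-5p did the same, with -0.02 to 0.57 and -5.06 to -4.24 in the 4 pools against -5.81 to -4.00 and -0.45 to 0.87 in the other 8. What sets the 4 pools apart was not tested. Since all 3 UT pools are among them, no value for UT is free of them, whereas WL can be given without WL 3.

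The first comparison asked how the arms stood in adult fat after exposure in utero alone. MiR-126a-3p, the arm that supports growth factor signalling, had relative levels of 6.01, 7.22 and 7.05 in UT 1 to 3, against 8.02, 8.49 and 7.34 in CD 1 to 3. Each UT pool lay below each CD pool, with UT 2 close under CD 3. UT averaged 6.76 ± 0.66 and CD 7.95 ± 0.58 (SD over 3 pools each), a difference of -1.19 (SE 0.46 from the limma fit over 504 microRNAs).

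MiR-126a-5p went the other way. It had relative levels of 7.80, 7.56 and 8.02 in UT and 6.36, 6.79 and 6.14 in CD, and the pools did not overlap. UT averaged 7.79 ± 0.23 and CD 6.43 ± 0.33 (SD over 3 pools each), a difference of 1.36 (SE 0.34). By place among the 504 assays, the 3p arm was at 19 in UT and 7 in CD, and the 5p arm at 8 in UT and 25 in CD. Pools of UT and CD did not overlap for 2 of 2 arms, beside 14% of the 480 microRNAs complete in both groups; the contrast chose the pair, so nothing is read from that count. With the limma fit, 1.39% of 504 microRNAs passed an adjusted p of 0.05 in this contrast.

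**Figure D1:**
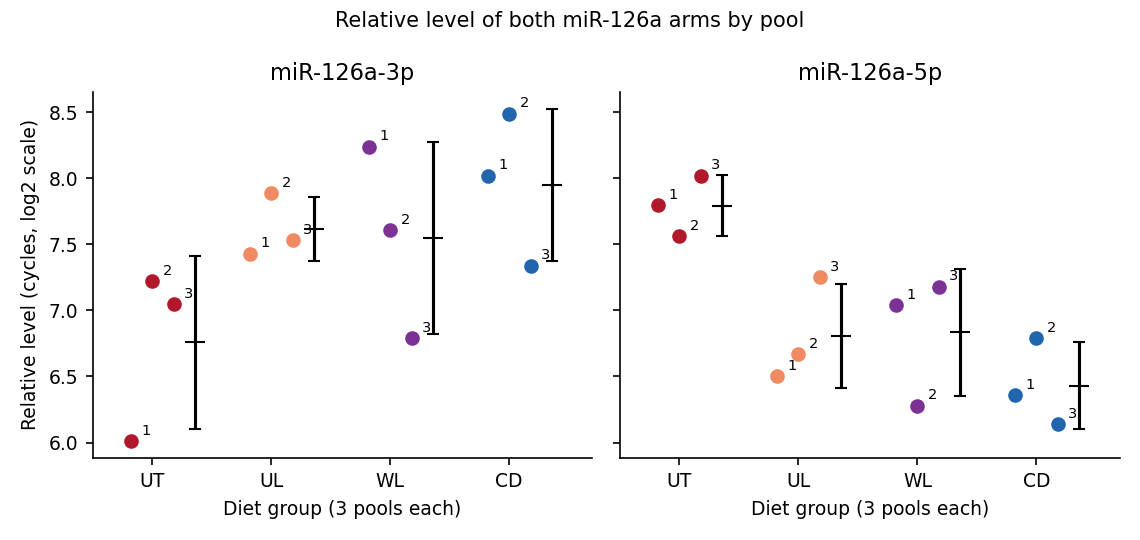
Relative level (cycles, log2 scale; higher is an earlier Ct) of miR-126a-3p on the left and miR-126a-5p on the right in each pool, numbered within its group, with the mean and SD of 3 pools in black. For the 3p arm the UT pools lie at 6.01 to 7.22 and the CD pools at 7.34 to 8.49; for the 5p arm they lie at 7.56 to 8.02 and 6.14 to 6.79, and WL 3 lies at 6.79 for 3p, within the range of UT, and at 7.18 for 5p, below all UT pools.

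The arm gap, the Ct of 5p minus the Ct of 3p in the same pool, needs no scaling between pools, because any constant of a pool cancels in it. A positive gap means that the 3p arm came first. In UT the gap was -1.79, -0.34 and -0.97 cycles, with Ct of 18.62, 17.35 and 18.01 for 3p and of 16.83, 17.01 and 17.04 for 5p. In CD it was 1.66, 1.70 and 1.20 cycles, with Ct of 16.77, 16.30 and 17.55 for 3p and of 18.43, 18.00 and 18.75 for 5p. The order of the arms was therefore turned: 5p came first in 3 of 3 UT pools and 3p came first in 3 of 3 CD pools.

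The gaps would stand for ratios of 5p over 3p only if the product doubled in every cycle and both assays were equally efficient. These ratios would be 3.46, 1.27 and 1.96 in UT, against 0.316, 0.308 and 0.435 in CD. Neither condition was tested, so the ratios do not tell which arm was more abundant. The gap averaged -1.03 ± 0.73 cycles over the 3 UT pools and 1.52 ± 0.28 over the 3 CD pools (SD), a difference of -2.55 cycles (SE 0.56 from a limma fit of the gap over 95 hairpins). The UT pools had the larger SD of these 2 groups, and UT 1 had the latest 3p arm of all 12 pools.

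In UL the gap was 0.93, 1.22 and 0.28 cycles, and 3p came first in 3 of 3 pools. In WL it was 1.20 and 1.33 cycles in WL 1 and WL 2 and -0.39 in WL 3, the only pool outside UT in which 5p came first. Ordered by mean gap, the groups ran from UT (-1.03) through WL (0.71 ± 0.96) and UL (0.81 ± 0.48) to CD (1.52). The neighbours WL and UL did not differ beyond their spread, with a difference of -0.10 cycles (95% interval -1.32 to 1.12), and this difference was 0.45 without WL 3.

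**Figure D2:**
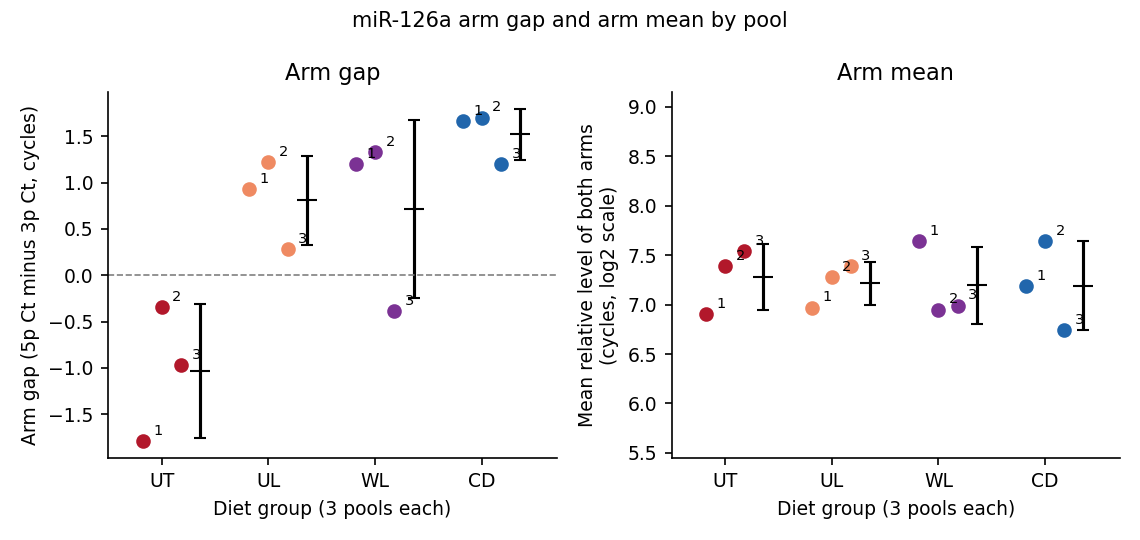
Left, the arm gap of miR-126a (5p Ct minus 3p Ct, cycles) per pool, with the dashed line at equal Ct; right, the mean relative level of both arms (cycles, log2 scale) per pool; black marks are means and SD of 3 pools. The gap runs from -1.79 to 1.70 over the 12 pools, with UT 1 to 3 and WL 3 below 0, while the mean of the arms runs from 6.74 to 7.64.

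The mean relative level of both arms, a measure added after the values were seen and given with no test, was 6.90, 7.39 and 7.54 in UT, 6.97, 7.28 and 7.39 in UL, 7.64, 6.95 and 6.99 in WL, and 7.19, 7.64 and 6.74 in CD. The groups overlapped, and the range within a group was 0.63 in UT, 0.43 in UL, 0.69 in WL and 0.91 in CD. Averaged over 3 pools, it was 7.28 ± 0.33 in UT, 7.21 ± 0.22 in UL, 7.19 ± 0.39 in WL and 7.19 ± 0.45 in CD (SD). Relative to CD, the differences were 0.09 in UT (95% interval -0.60 to 0.78), 0.02 in UL (-0.67 to 0.71) and 0.00 in WL (-0.69 to 0.69). Since the pair was chosen for arms that differ in opposite directions in UT, a small difference of their mean there follows in part from that choice. These values are relative to the average microRNA. With the small nucleolar RNA RNU-43 as the reference the arm mean in UT was 0.83 above CD, where the median of all microRNAs was also 0.73 above.

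The second comparison asked what was left of exposure that ended at weaning. MiR-126a-3p had relative levels of 7.43, 7.89 and 7.53 in UL, within the range of 7.34 to 8.49 in CD. The difference was -0.33 (SE 0.46, limma adjusted p = 0.995, 95% interval -1.35 to 0.68). MiR-126a-5p had 6.50, 6.67 and 7.25 in UL, and UL 3 alone lay above the highest CD pool, at 6.79. Its difference was 0.38 (SE 0.34, limma adjusted p = 0.995, interval -0.38 to 1.13). The gap averaged 0.81 ± 0.48 cycles in UL and 1.52 ± 0.28 in CD (SD over 3 pools each), a difference of -0.71 cycles (SE 0.56, limma adjusted p = 0.981, interval -1.93 to 0.51).

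Neither arm passed in UL, where 0.595% of 504 microRNAs did, and neither did the gap, where 1.05% of 95 hairpins did. Pools of UL and CD overlapped in both arms and in the gap, while they did not overlap for 7.88% of 495 microRNAs and 6.59% of 91 hairpins. In the gap the overlap was narrow: only UL 2 (1.22 cycles) lay above the lowest CD pool, CD 3 (1.20). The contrasts with CD share the same 3 control pools, whose values also entered the choice of the pair, so their common direction is no separate observation.

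The third comparison asked about the diet that lasted until 23 weeks. MiR-126a-3p had relative levels of 8.24, 7.61 and 6.79 in WL and a difference from CD of -0.41 (SE 0.46, limma adjusted p = 0.956, interval -1.42 to 0.61). MiR-126a-5p had 7.04, 6.28 and 7.18 and a difference of 0.40 (SE 0.34, limma adjusted p = 0.956, interval -0.35 to 1.16). Of the 3 WL pools, WL 3 had the lowest 3p and the highest 5p level. Without it the differences were -0.03 for 3p and 0.23 for 5p.

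The gap in WL differed from that in CD by -0.81 cycles (SE 0.56, limma adjusted p = 0.841, interval -2.03 to 0.41), and by -0.26 without WL 3. In this contrast 0.595% of 504 microRNAs and 1.05% of 95 hairpins passed, with 0 of 2 arms and not the gap of miR-126a among them. Pools of WL and CD overlapped in both arms and in the gap, while they did not overlap for 11% of 481 microRNAs and 13.8% of 87 hairpins. Set against UL, the group that shares exposure up to weaning, WL had a difference of -0.07 for 3p (interval -1.09 to 0.94) and 0.02 for 5p (interval -0.73 to 0.78), with limma adjusted p of 0.988 and 0.991. There 0% of 504 microRNAs and 0% of 95 hairpins passed by limma, with 27 microRNAs and 6 hairpins at an unadjusted p under 0.05. Pools of WL and UL overlapped in both arms and in the gap, while they did not overlap for 9.88% of 486 microRNAs and 8.99% of 89 hairpins.

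The size of the turn in UT was set beside the other hairpins, as a description of where miR-126a stands. The change of its gap, -2.55 cycles, was at place 8 of 95 by absolute size, where the median absolute change was 0.56. MiR-676 changed by 7.48 cycles, miR-291b by -6.43, miR-135b by 5.77, miR-592 by 5.39 and miR-758 by 4.48. For miR-291b the change sets 1 UT pool against 1 CD pool, and for miR-135b 3 UT pools against 1 CD pool, and the later arm had a mean Ct of 33.01 and 32.62 in these 2 hairpins. Just above miR-126a stood miR-9 with -2.77 cycles and just below it miR-302d with 2.53. MiR-676, miR-592 and miR-758 are the hairpins with the assays that traded levels.

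Among the 89 hairpins complete in UT and CD, the gap had 1 sign in all UT pools and the other in all CD pools in 2, miR-126a and miR-676. In both, WL 3 fell on the side of UT. Pools of UT and CD did not overlap in the gap of 21.3% of these hairpins, and 6.32% of 95 passed by limma. The gap of UT 1 to 3 and WL 3 lay outside the range of the other 8 pools in 6 of 84 hairpins complete in all pools, namely miR-126a, miR-351, miR-363, miR-592, miR-676 and miR-758. These 6 were found after the values were seen.

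**Figure D3:**
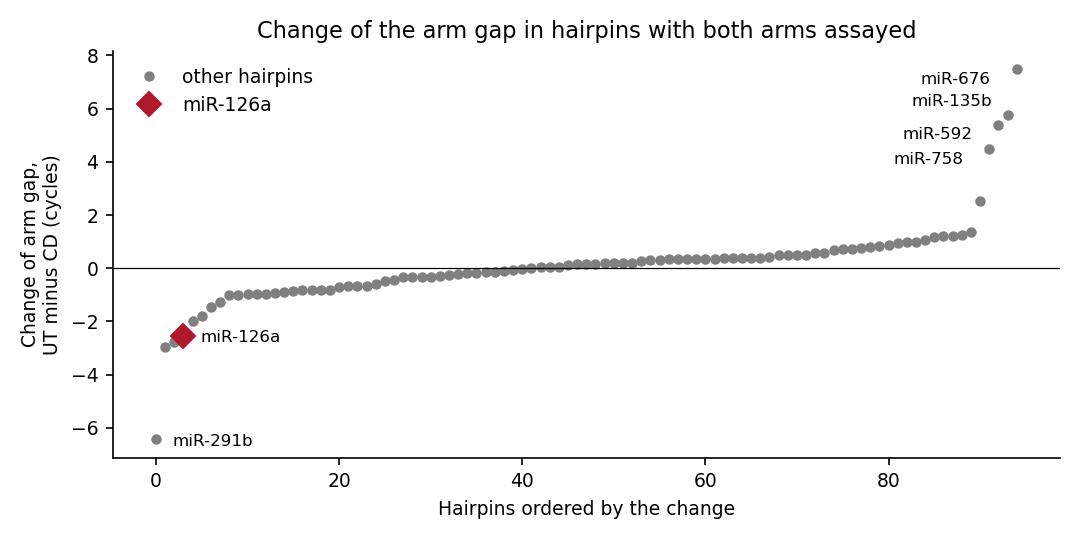
Change of the arm gap between UT and CD (group means of 5p Ct minus 3p Ct, cycles) for the 95 hairpins with both arms assayed, ordered from the most negative to the most positive, with miR-126a as a red diamond and the 5 with the largest absolute change named. MiR-126a lies at -2.55 and miR-676 at 7.48.

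The levels of the 2 arms in the 4 pools can be compared with those of the opposite arm elsewhere. In UT 1 to 3 and WL 3, miR-126a-5p averaged 7.64, which lay 0.18 cycles from the 7.82 of miR-126a-3p in the other 8 pools, and 3 of 4 values fell inside the range of miR-126a-3p there (7.34 to 8.49). MiR-126a-3p averaged 6.77 in the 4 pools, 0.14 from the 6.63 of miR-126a-5p in the other 8, again with 3 of 4 values inside that range (6.14 to 7.25). The corresponding distances were 0.09 and 0.42 for the arms of miR-676 and 0.18 and 0.25 for miR-592-3p and miR-758-5p. The arms of miR-126a lie closer together than those pairs. The 4 pools are also those in which the gap of miR-126a lay below 0, and the pair was chosen for opposite differences in UT. That each arm lay near the level of the opposite arm follows in part from this choice, so nothing is read from these distances for miR-126a. For 5p the range in the 4 pools (7.18 to 8.02) overlapped that in the other 8 (6.14 to 7.25), and for 3p the ranges (6.01 to 7.22 and 7.34 to 8.49) did not overlap.

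When the 2 arms of miR-126a were swapped in those pools (a setting added after the values were seen), the gap was 1.79, 0.34 and 0.97 cycles in UT, 1.20, 1.33 and 0.39 in WL, and as before in UL and CD. The swapped pools are the 4 with a gap below 0, so a positive gap in every pool follows from the swap itself. The difference in gap between UT and CD was then -0.49 (SE 0.48), with -0.16 (SE 0.37) for 3p and 0.33 (SE 0.39) for 5p. Whether the values in these pools belong to the arm they are listed under was not tested. The size of the differences in UT and the order of the arms there depend on it. With the arms swapped, each difference was about as large as its SE or smaller, so nothing is read from its sign.

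**Figure D4:**
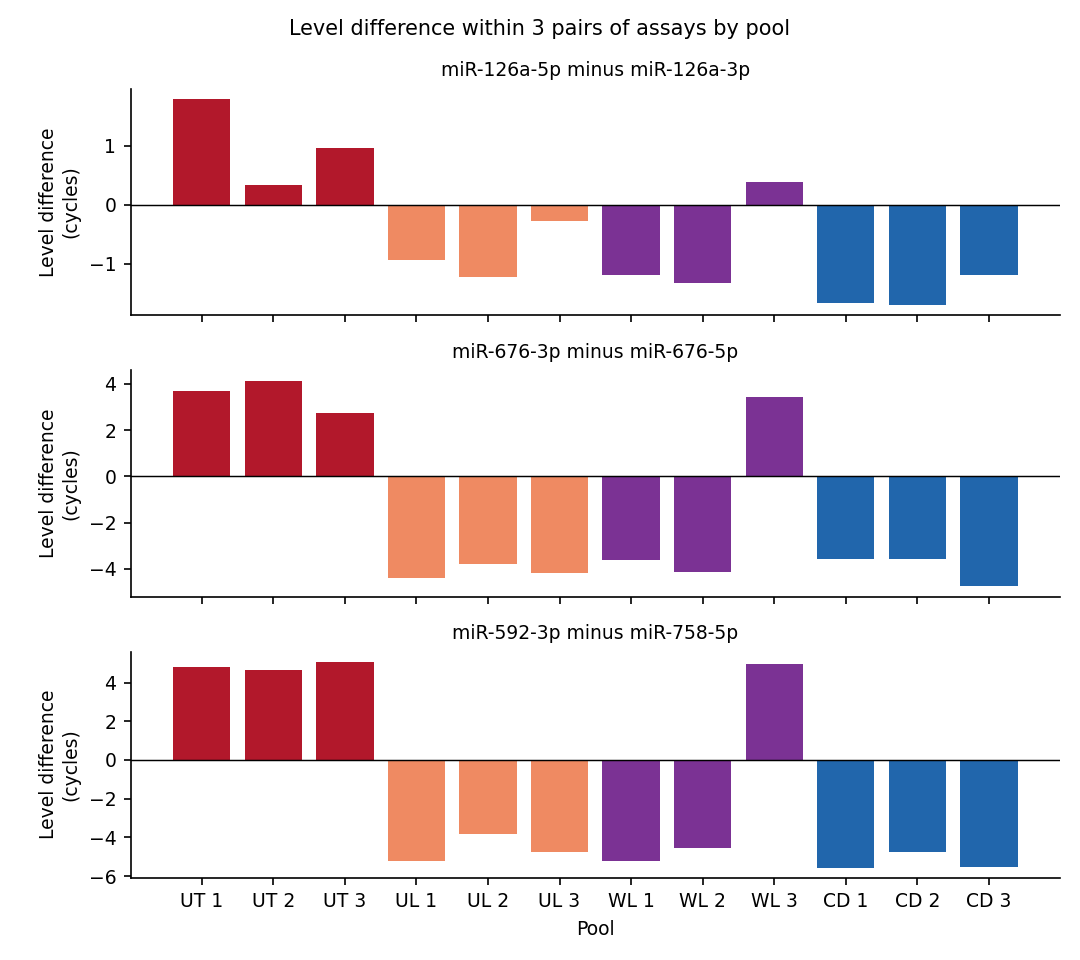
Difference in relative level (cycles, log2 scale) within each pool between miR-126a-5p and miR-126a-3p (top), miR-676-3p and miR-676-5p (middle), and miR-592-3p and miR-758-5p (bottom); bars are single pools coloured by group, and the vertical scales differ. In all 3 pairs the bars of UT 1, UT 2, UT 3 and WL 3 point up and those of the other 8 pools point down.

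The microRNAs whose relative level followed each arm most closely were taken by Pearson's r over the 12 pools, as a description, since all levels share the pool and its scaling. For miR-126a-3p these were miR-501-5p (r = 0.79), miR-676-5p (0.79), miR-199a-5p (0.75), let-7d-3p (0.72) and miR-199a-3p (0.71), of which both arms of miR-199a are abundant in stromal cells. For miR-126a-5p they were miR-676-3p (0.85), miR-184-5p (0.84), miR-592-3p (0.80), miR-683 (0.77) and miR-687 (0.76). Each arm of miR-126a thus had an arm of miR-676 in its list. Over the 8 pools other than UT 1 to 3 and WL 3, r was 0.44 to 0.72 for the first 5. For the second 5 it was -0.11 to 0.53. Both lists were chosen by r over all 12 pools, the 4 included, so a lower r over the 8 follows in part from that choice. The 2 arms of miR-126a had r = -0.55 with each other over the 12 pools and 0.37 over the 8. These 8 are the pools with a gap above 0, so nothing is read from the change of sign.

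The other microRNAs of endothelium and vessel growth were described from a list of 25 entries, 23 of which had an assay, 21 of them besides miR-126a. None of the 21 passed in any of the 4 contrasts, with the smallest limma adjusted p at 0.66 in UT against CD, 0.995 in UL against CD, 0.844 in WL against CD and 0.805 in WL against UL. Of all 504 microRNAs, 1.39%, 0.595%, 0.595% and 0% passed in the same order. The count for the list is near these shares, so nothing is read from it. In UT against CD, 8 lay above 0 and 13 below, beside 246 above and 258 below among all 504 microRNAs, with a median of -0.14 beside -0.01. In UL against CD, 8 lay above and 13 below, beside 220 and 284, with a median of -0.09 beside -0.07. In WL against CD, 12 lay above and 8 below, with let-7f-5p at 0.00, beside 219 and 285, with a median of 0.03 beside -0.06. In WL against UL, 13 lay above and 8 below, beside 236 and 268, with a median of 0.14 beside -0.05.

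The extremes in UT were miR-24-3p, which restrains angiogenesis, at -0.67 (SE 0.65) and miR-31-5p at 1.18 (SE 1.18). In WL they were miR-222-3p, which limits the growth of human endothelial cells, at -0.60 (SE 0.79) and miR-27b-3p, which promotes vessel sprouting, at 0.80 (SE 0.53). The SE of miR-31-5p was as large as its difference.

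The 4 listed microRNAs of highest level besides miR-126a differed in their spread. MiR-23a-3p, which is made from the same cluster as miR-24-3p and miR-27a-3p, had 7.31, 7.05 and 6.99 in UT, 6.77, 7.12 and 6.84 in UL, 7.62, 6.90 and 7.13 in WL, and 6.94, 7.02 and 7.04 in CD. Let-7f-5p had 6.96, 6.64 and 6.65 in UT, 6.92, 6.35 and 6.57 in UL, 6.75, 6.96 and 6.98 in WL, and 6.91, 6.90 and 6.88 in CD. UT and CD overlap for miR-23a-3p and for let-7f-5p. MiR-23b-3p averaged 5.23 ± 0.21 in UT (n = 2), 5.43 ± 0.10 in UL, 5.57 ± 0.09 in WL and 5.64 ± 0.28 in CD (n = 3 each). MiR-24-3p averaged 4.71 ± 0.79 in UT, 5.02 ± 0.66 in UL, 4.90 ± 1.06 in WL and 5.38 ± 0.97 in CD (SD over 3 pools). Its pools ran from 3.68 in WL 3 to 6.16 in CD 2, the widest spread of the 4.

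The mature sequences of 3 of these 4 show that each has a seed unlike that of miR-126a-3p.
miR-23a-3p: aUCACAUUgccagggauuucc
let-7f-5p: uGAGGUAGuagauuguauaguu
miR-24-3p: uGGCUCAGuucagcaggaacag
MiR-126a-3p and -5p differed between UT and CD by -1.19 and 1.36, and the same difference was 0.12 for miR-23a-3p, -0.14 for let-7f-5p, -0.41 for miR-23b-3p and -0.67 for miR-24-3p. These are given side by side as a description, since the contrast chose the pair.

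**Figure D5:**
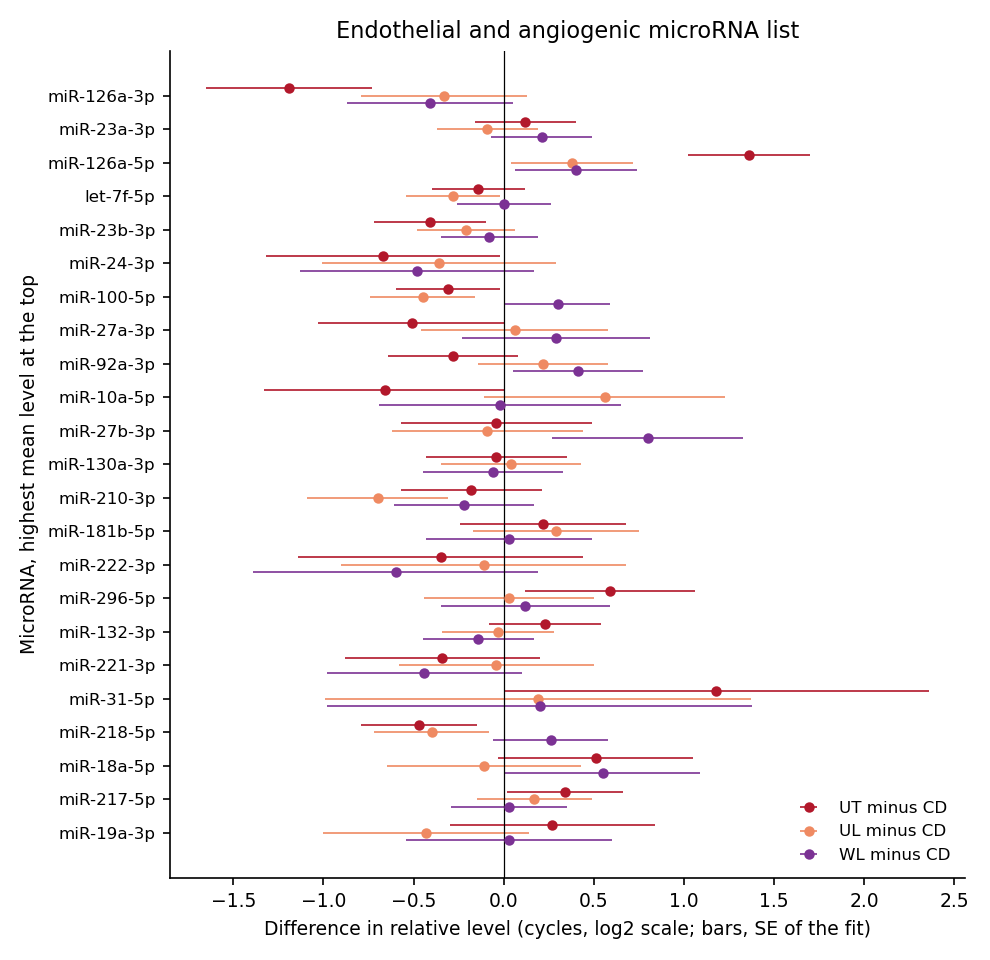
Difference in relative level from CD (cycles, log2 scale; bars, SE of the limma fit) for the 23 measured microRNAs of the endothelial and angiogenic list in UT (red), UL (orange) and WL (purple), ordered by mean level with the highest at the top. In UT, miR-126a-3p lies at -1.19 and miR-126a-5p at 1.36, and the other 21 lie between -0.67 and 1.18.

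The authors' deposited values for the arms carry the opposite sign. In the authors' deposited table of normalized values miR-126a-3p had 0.01265, 0.00594 and 0.00572 in UT and 0.00281, 0.00207 and 0.00471 in CD, and these values grow with later Ct. The authors' deposited table of fold changes accordingly lists 2.54 for miR-126a-3p and 0.426 for miR-126a-5p in UT over CD, where the Ct show an earlier 5p and a later 3p arm. For UL, the authors' deposited table lists 1.69 for 3p and 0.616 for 5p, while the ratio recomputed from the UL pools is 1.25 for 3p and 0.807 for 5p. For WL, the authors' deposited table lists 1.41 for 3p and 0.727 for 5p, against 1.45 and 0.813 from the WL pools. Over 507 of 507 assays its UL column equalled the mean of UT 2, UT 3 and UL 1 divided by the mean of CD. Its WL column equalled the mean of UT 3, UL 1 and UL 2 divided by the mean of CD (tolerance 0.0001 on the log2 scale). Pools in which the arms are turned thus enter the authors' deposited table under UL and WL as well.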

How the data were processed

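The authors' first deposited table holds raw Ct, a score without a fixed range that was not normalized, per the file headers, and these were the values tested. Per the file headers, the authors also deposited normalized ratios and fold changes as ratios of group means. The sources used here name neither the PCR platform nor the rule that set Ct. Per the labels' protocols, RNA came from about 22 mg of fat pad. Of 507 rows, 1 repeated row was dropped, leaving 504 microRNAs and 2 reference RNAs. Each Ct was subtracted from the pool's mean over the 466 microRNAs measured in all 12 pools. Group differences were fitted with limma 3.58.1 (lmFit, eBayes; R 4.3.3) over 12 pools in 4 groups, two-sided, with Benjamini-Hochberg adjustment over 504 microRNAs or, for arm gaps, 95 hairpins, and a threshold of 0.05. With 3 pools a group, p-values measure the spread between pools only, and the number of pools limits precision: the median SE was 0.43 to 0.44 cycles for levels and 0.64 to 0.65 for gaps. The fits were first run on simulated data with changes added between WL and CD. Changes of 1 cycle were recovered in 38.7% of cases for levels and 10.6% for gaps. Changes of 2 cycles were recovered in 79.3% and 57.5%. Of the calls, 3.25% were false for levels and 6.13% for gaps. The simulation changed 200 of 504 microRNAs and 30 of 95 hairpins, far more than passed in the data. A gap difference near 1 cycle would thus mostly be missed. The named microRNAs were the 2 arms, the 5 most like each arm, the 4 most abundant listed endothelial microRNAs, the extremes of that list and the 5 hairpins with the largest gap change; the extremes, the hairpins next to miR-126a in gap change, the pairs that traded levels and the hairpins set apart by 4 pools were named after their values were seen. The members and lists were chosen with earlier results of these data known. Alternatives covered scaling, filters, the variance model, the groups in the fit, single pools left out, a replicate block and neighbouring assays.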

Additional observations from a re-analysis of the deposited data

How the results depend on the processing

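The 16 differences of miR-126a (each arm, the gap and the arm mean in 4 contrasts) were recomputed, giving 316 alternative values in all. Of these, 291 were kept. For tested differences this means the same direction without passing where the first fit did not. For untested ones it means within 1 SD, whatever the sign. The variance models, the replicate block, the filters and the fit of only the 2 groups cannot move these differences of group means. The count is therefore in part fixed in advance. None of the tested differences passed an adjusted p of 0.05 under any alternative run. In UT against CD, exchanging the arms in UT 1 to 3 and WL 3 gave -0.49 for the gap, -0.16 for 3p and 0.33 for 5p, and RNU-43 as the reference gave -0.45 for 3p, 2.10 for 5p and 0.83 for the arm mean (0.39 for the arm mean in UL). RNU-43 moved the median of all microRNAs to 0.73 in UT and 0.30 in UL, and turned 3p in UL to 0.03. U6-snRNA, missing in UT 1 and WL 3, turned 3p in WL to 0.22 against CD and 0.55 against UL, with the median of all microRNAs at 0.26 and 0.32. In WL against UL, where every difference lay near 0, exchanging the arms gave 0.16 for the gap, 0.06 for 3p and -0.11 for 5p, neighbouring assays subtracted gave 0.21 for 3p, and for 5p RNU-43 gave -0.32, the earliest 100 microRNAs -0.01 and the pool median 0.00.

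Leaving out single pools gave the gap -2.90 to -2.18 in UT, -0.92 to -0.45 in UL and -1.12 to -0.26 in WL against CD, and -0.41 to 0.45 in WL against UL. For 3p it gave -1.50 to -0.81, -0.64 to -0.06, -0.75 to -0.03 and -0.42 to 0.31 in the same order, and for 5p 1.22 to 1.54, 0.15 to 0.56, 0.23 to 0.68 and -0.15 to 0.30. The smallest of each WL range in size, for the gap and both arms against CD, is the one without WL 3. Replicate numbers are shared between groups in the labels, but same-numbered pools had correlations of -0.27 to 0.26 between their deviations from the group means (7 of 18 above 0.1), 5 of 12 pools correlated best with their own number, and the numbers were not taken to pair the pools. With the replicate block the gap differed by -2.55 in UT, -0.71 in UL and -0.81 in WL (adjusted p = 0.98 and 0.667 in UL and WL), and 0 tested differences passed. No depth is defined for Ct; both arms lie far from the late cycles at which values are lost.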
